A study of Mus musculus with 3 samples.

Results

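Prostaglandins and leukotrienes are lipid mediators made from arachidonic acid, and the genes described here encode 10 enzymes and helper proteins of their synthesis: Ptgs1, Ptgs2, Ptges, Hpgds, Ptgds, Alox5, Alox5ap, Alox15, Ltc4s and Lta4h. They were chosen by name as a family and looked up by gene symbol among the named probes of the array, which stood for 17349 genes. Of the 10 genes, 9 had a named probe, 1 each, and Ptgs1 was not among the named probes and was not analysed here. Gene expression had been measured in sinonasal mucosa, which lines the nasal cavity and the sinuses, of C57BL/6 mice aged 6 to 8 weeks. The group control_WT held wild-type mice without disease, ECRS_WT wild-type mice given eosinophilic chronic rhinosinusitis of allergic type, and ECRS_KO mice with the same disease that lacked CC10, the club cell secretory protein encoded by Scgb1a1. For each group equal amounts of RNA from 5 mice were pooled for 1 Illumina bead array. There were thus 3 arrays in all, their number limits the precision of each value, and nothing below has a replicate check or a p-value.

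Separate routes lead from arachidonic acid. In the cyclooxygenase route, Ptgs1 and Ptgs2 make prostaglandin H2, which Ptges turns into prostaglandin E2 and which either of a pair of unrelated enzymes, Hpgds of haematopoietic cells and the lipocalin-type Ptgds, turns into prostaglandin D2. In the lipoxygenase route, Alox5, which needs the membrane protein Alox5ap to receive its substrate, makes leukotriene A4, from which Lta4h makes leukotriene B4 and Ltc4s the cysteinyl leukotriene C4. Alox15 oxygenates arachidonic acid at another carbon. In allergic airways prostaglandin D2 and the cysteinyl leukotrienes are known as products of mast cells, eosinophils and macrophages, and solitary chemosensory (tuft) cells of the epithelium also make cysteinyl leukotrienes.

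The arrays differed in brightness, with mean signals of 295 (control_WT), 373 (ECRS_WT) and 465 (ECRS_KO), and 11428 to 12508 of 35226 probes were detected, at a detection p-value under 0.01. Scgb1a1, the targeted gene, gave a signal of 3.32, not detected, on control_WT, 493 on ECRS_WT and 597 on ECRS_KO. Signal was thus missing from a wild-type pool and present in the knockout pool, against both labels; where the probe lies relative to the deletion was not given. Group names below therefore mean the array so labelled, and each direction rests on the labels. Markers of eosinophils, the cells that give the disease its name, were mostly at background: Epx, Siglecf and Ccr3 were not detected on any array. Prg2, the major basic protein, had signals of 1307, 886 and 1106 in the same order.

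Of the 9 genes with a probe, 4 were detected on all 3 arrays, namely Ptges, Ptgds, Alox5ap and Ltc4s. Alox5 was detected on the arrays labelled ECRS_WT and ECRS_KO, and Hpgds on the array labelled ECRS_WT alone. Ptgs2, Alox15 and Lta4h were not detected on any array. Values are given as the deposited signal, a linear intensity after background subtraction, and as a normalized level on the log2 scale, in which a difference of 1 is 2-fold. A gene counted as measured in a comparison when it was detected on either array, and was called where the arrays differed by at least 2-fold, a rule of size that stands in for a test. Where the dimmer array did not detect the probe, its own level there was used, or that of the dimmest detected probe if higher. Only in the latter case is the difference a lower bound on its size.

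**Figure D1:**
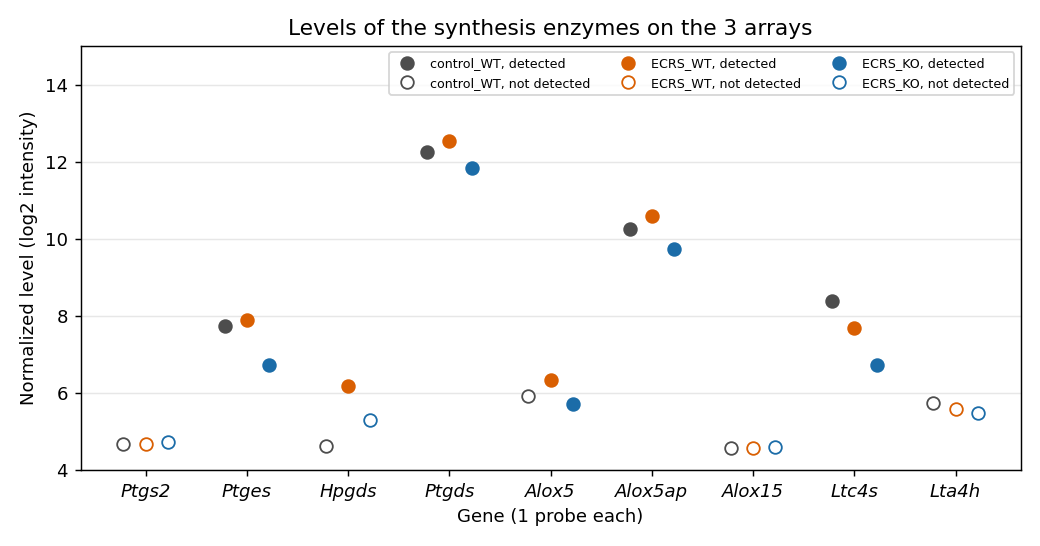
Normalized level (log2 intensity) of the 9 enzymes with a probe on the 3 arrays, filled where the probe was detected and open where it was not; each point is 1 array of pooled RNA. Ptges, Ptgds and Alox5ap stand lowest on the array labelled ECRS_KO and highest on the array labelled ECRS_WT, and Ltc4s steps down from control_WT through ECRS_WT to ECRS_KO; levels are to be compared within a gene, not between genes.

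To show the upstream sequence of the genes on which the results turn, the 250 bases before a RefSeq transcription start (build GRCm38.p6) are printed 5′ to 3′ on the strand of the gene. Hpgds and Ptgds are shown as the pair that makes the same product, and Ptges and Ltc4s as those with the most negative differences between ECRS_KO and ECRS_WT. The windows are chr6:65144731-65144980 for Hpgds, chr2:25469750-25469999 for Ptgds, chr2:30903298-30903547 for Ptges and chr11:50238533-50238782 for Ltc4s, all on the minus strand. The annotated genes Hpgds, Ptgds and Ptges reach to 65144981, 25470110 and 30931020, so their windows lie inside them. The start used for these genes is thus not the outermost one. Capitals mark matches to 7 motifs, chosen after the sequences had been seen and searched on both strands.
Hpgds: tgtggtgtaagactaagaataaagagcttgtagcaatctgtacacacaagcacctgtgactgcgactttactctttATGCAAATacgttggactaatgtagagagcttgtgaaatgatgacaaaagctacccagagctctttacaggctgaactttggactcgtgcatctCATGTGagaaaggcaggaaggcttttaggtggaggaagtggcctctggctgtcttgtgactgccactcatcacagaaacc
Ptgds: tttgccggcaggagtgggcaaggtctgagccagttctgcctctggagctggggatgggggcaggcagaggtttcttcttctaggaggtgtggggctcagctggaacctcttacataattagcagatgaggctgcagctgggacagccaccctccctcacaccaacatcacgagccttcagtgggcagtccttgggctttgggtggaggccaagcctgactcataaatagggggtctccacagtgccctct
Ptges: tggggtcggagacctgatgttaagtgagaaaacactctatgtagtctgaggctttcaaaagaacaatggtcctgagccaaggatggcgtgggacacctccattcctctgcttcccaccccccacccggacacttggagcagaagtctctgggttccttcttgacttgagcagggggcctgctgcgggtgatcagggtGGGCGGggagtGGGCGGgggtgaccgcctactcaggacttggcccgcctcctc
Ltc4s: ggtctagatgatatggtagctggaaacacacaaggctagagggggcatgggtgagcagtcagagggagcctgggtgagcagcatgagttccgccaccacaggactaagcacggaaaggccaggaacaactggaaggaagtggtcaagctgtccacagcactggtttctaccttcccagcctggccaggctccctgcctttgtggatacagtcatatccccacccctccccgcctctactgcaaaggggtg
The motifs were the TATA box TATAAA, the GC box GGGCGG, the CCAAT box CCAAT, the E-boxes CACGTG and CATGTG, the GATA motif GATAA and the octamer ATGCAAAT. Hpgds held the octamer 174 bases and the E-box CATGTG 80 bases before the start, and these letters occurred in 1.6% and 12.3% of all 32851 such windows. Ptges held GC boxes that began 53 and 42 bases before the start, against 32.7% of all windows with at least 1. None of the 7 motifs overlapped another in these windows, and the windows of Ptgds and Ltc4s held none of them. The TATA box occurs in 12.4% of all windows, the CCAAT box in 33.8%, CACGTG in 6.02% and the GATA motif in 22.6%. A match is a description of letters and does not show that a factor binds.

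The comparison of the arrays labelled ECRS_WT and control_WT asked how the enzymes differed with the disease in wild-type mice. Of 6 measured enzymes, Hpgds was higher at the 2-fold bound on the array labelled ECRS_WT, 4 others were higher by less, and Ltc4s was lower by 1.62-fold. Hpgds and Alox5 counted as measured only through their detection on ECRS_WT, which largely fixed their direction. Among 8766 genes measured, 3.76% were called higher and 1.4% lower, 5.17% in all. The median difference of the 6 enzymes was 0.30 on the log2 scale, against -0.09 for all measured genes. Over the 4 enzymes detected on all 3 arrays it was 0.21. Hpgds alone reached the size rule, and only just.

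Hpgds, the haematopoietic prostaglandin D synthase, gave -6.1 on control_WT, 53.1 on ECRS_WT and 27.8 on ECRS_KO. It was detected on the middle one of these alone; on the array labelled ECRS_KO its detection p-value was 0.0495. The difference between ECRS_WT and control_WT was a bound of 1.0 on the log2 scale, at least 2.0-fold, and it reached 2-fold under 3 of 9 alternative settings, with a range from 0.06 (background inferred by limma itself) to 1.56 (no detection filter). Its call as 2-fold higher thus depended on the processing. So did its detection on 1 array alone, since at a limit of 0.05 it was detected on ECRS_KO too.

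Ptgds, the lipocalin-type synthase of the same product, had signals of 3731 on control_WT, 5847 on ECRS_WT and 4524 on ECRS_KO. It was bright on all 3 arrays and 1.21-fold higher on ECRS_WT than on control_WT (0.28 on the log2 scale). Ptges, the prostaglandin E synthase, gave 123, 215 and 128 in the same order, and its normalized levels on control_WT and ECRS_WT differed by 1.10-fold. The deposited signals of Ptges and Ptgds were 1.74 and 1.57 times as high on ECRS_WT as on control_WT, beside a ratio of 1.27 between the mean signals of the arrays. Both prostaglandin synthases therefore lay within 2-fold in this comparison on the normalized scale.

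In the lipoxygenase route, Alox5ap had signals of 878 on control_WT, 1485 on ECRS_WT and 1112 on ECRS_KO, and was 1.25-fold higher on ECRS_WT than on control_WT. Alox5 gave 25.3, 61.2 and 48.8, of which the first, with a detection p-value of 0.0115, lay just outside the limit of 0.01. Measured against its own level on control_WT, Alox5 was 1.35-fold higher on ECRS_WT. Ltc4s, which joins leukotriene A4 to glutathione, had signals of 204, 182 and 128. It was lower on ECRS_WT than on control_WT by 0.70 on the log2 scale in size and was the 1 measured enzyme of this comparison that went downward. The difference was negative under all 10 alternatives (from -0.71 to -0.22), some of which could not change it. The pooled SD between probes of the same gene, detected on both arrays, was 0.50 in this comparison, over 370 genes. Of the 6 enzymes Hpgds and Ltc4s differed by more than that, but Hpgds was not detected on control_WT, so the SD does not cover it. The SD describes probes on these arrays and not the variation between mice.

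The comparison of the arrays labelled ECRS_KO and ECRS_WT asked how the enzymes differed when CC10 was absent in diseased mucosa. All 6 measured enzymes were lower on the array labelled ECRS_KO, by 1.54-fold to 2.25-fold, and 1 of them, Ptges, reached 2-fold. Hpgds counted as measured only through its detection on ECRS_WT, which largely fixed its direction. The other 5 were detected on both arrays. Of 8919 measured genes 2.35% were called lower and 4.72% higher, 7.07% in all, and 54.4% lay below 0. The median of the enzymes was -0.87 on the log2 scale, against -0.04 for all measured genes. Over the 4 enzymes detected on all 3 arrays it was -0.91. The direction was the same under every alternative in which an enzyme was measured, 10 for Ptges, Ptgds, Alox5ap and Ltc4s and 9 for Hpgds and Alox5. The settings that change only the detection rule or average over probes repeat the reported values here. They are thus no check of direction.

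Ptges was 2.25-fold lower on ECRS_KO (-1.17 on the log2 scale), at percentile 1.46 of the differences of all measured genes. That call was lost under 5 of 10 alternatives. Ltc4s was 1.95-fold lower, Alox5ap 1.8-fold, Ptgds 1.63-fold and Alox5 1.54-fold. Hpgds, not detected on ECRS_KO, was 1.86-fold lower against its own level there. All 6 stood at or below percentile 7.87 of the measured genes, that of Alox5. With the background inferred by limma itself, Ptges differed by -0.22, Ltc4s by -0.16, Alox5 by -0.04 and Hpgds by -0.05, whereas the brighter Ptgds and Alox5ap differed by -0.78 and -1.15.

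The deposited signals showed the same direction without any normalization. The array labelled ECRS_KO was the brighter one, its mean signal being 1.25 times that of ECRS_WT, and 83.6% of measured genes had a signal there that was not lower. Each of the 6 measured enzymes was among the 16.4% whose signal was lower, though Hpgds counted as measured only through ECRS_WT. The signal of Ptges on ECRS_KO was 0.598 of that on ECRS_WT, that of Ltc4s 0.703, of Alox5ap 0.749, of Ptgds 0.774 and of Alox5 0.798. The pooled SD between probes of the same gene was 0.29 on the log2 scale over 491 genes, smaller than the normalized difference of each of the 6 enzymes. That SD was taken over probes detected on both arrays, which leaves out Hpgds. It describes probes on these arrays and not the variation between mice.

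The authors' own normalized values, made separately from the same arrays, had the same order. Ptges had 194, 196 and 116 of these units on control_WT, ECRS_WT and ECRS_KO, and Ptgds 3802, 4610 and 2762. Alox5ap had 949, 1157 and 634, and Ltc4s 275, 174 and 116. Hpgds, at 64.5, 101 and 81.1, and Alox5, at 95.9, 103 and 88.8, spanned less on this scale. On control_WT the scale equalled the deposited signal plus 70.6. On the other arrays its distance from the signal varied between probes. Each of the 6 was lower on ECRS_KO than on ECRS_WT, and none by 2-fold.

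**Figure D2:**
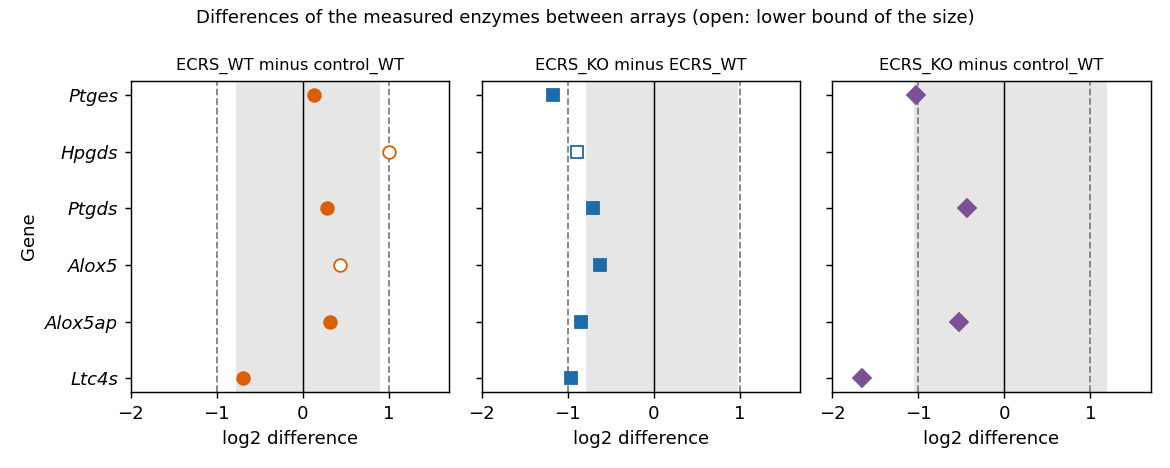
Differences of the 6 measured enzymes on the log2 scale in the 3 comparisons, with dashed lines at 2-fold and a grey band from the 5th to the 95th percentile of all measured genes. Open symbols mark a dimmer array that did not detect the probe. They are lower bounds only where the level of the dimmest detected probe was used. A gene is not drawn where the brighter array did not detect it. In ECRS_KO minus ECRS_WT every enzyme lies to the left of 0, between -1.17 and -0.62, with Hpgds measured only through ECRS_WT.

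Set against control_WT, the array labelled ECRS_KO had lower levels of each of the 4 enzymes detected on both arrays. This comparison shares its arrays with the other comparisons and gives no further evidence. Ltc4s was 3.17-fold lower (-1.66 on the log2 scale, percentile 0.616), and remained at 2-fold or more under 9 of 10 alternatives, the exception being the background inferred by limma itself (-0.39). Ptges was 2.05-fold lower, a call lost under 6 of 10 alternatives, with values up to -0.18. For Ltc4s and Ptges the 10 include settings that repeat the reported value. Alox5ap and Ptgds were lower by 1.45-fold and 1.35-fold. Of 9085 measured genes 5.66% were called lower and 6.91% higher, 12.6% in all, and 2 of 5 measured enzymes were called lower. Alox5 has no order here, since the array with the higher value did not detect it.

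The deposited signals of Ltc4s fell in the same order, with 0.627 on ECRS_KO of that on control_WT, although the mean signal of the array was 1.58 times as high. The signals of Ptges, Ptgds and Alox5ap were 1.04, 1.21 and 1.27 times those on control_WT. These 3 were thus lower on the normalized scale and not in the deposited signals, whereas Ltc4s was lower in both.

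Ptgs2, Alox15 and Lta4h stayed at background. Ptgs2, the inducible cyclooxygenase, had signals of -3.79 on control_WT, -3.95 on ECRS_WT and -2.42 on ECRS_KO, and Alox15 gave -8.6, -10.4 and -12.4. Lta4h, the leukotriene A4 hydrolase, had signals of 21.3, 29.2 and 36.4, with detection p-values of 0.0605, 0.0357 and 0.0158. It was detected on the latter 2 arrays at a limit of 0.05. Its difference for ECRS_KO minus ECRS_WT was then -0.10, opposite in sign to that of the deposited signals. The value of -0.17 for ECRS_WT minus control_WT has no order, since control_WT had the higher level and did not detect Lta4h. For Ptgs2 and Alox15 a difference was not detectable, which does not show that the transcripts were absent.

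Further genes of the pathways were examined in 6 lists, chosen with earlier results of these data known. Of 7 further synthases of prostanoids 6 had a probe, and 5 were measured between ECRS_KO and ECRS_WT. Prxl2b, which makes prostaglandin F2 alpha, was higher on ECRS_KO at signals of 1354 on control_WT, 1267 on ECRS_WT and 4974 on ECRS_KO. Its difference from ECRS_WT was 3.04-fold (1.6 on the log2 scale), opposite in sign to that of the 6 enzymes above, and lay between 1.51 and 1.99 under the alternatives. The list median was -0.20. Ptgis, the prostacyclin synthase, Cbr1, a carbonyl reductase, and Ptges2 differed by -0.20, -0.29 and 0.05. Between ECRS_WT and control_WT none of 4 was called, with a median of -0.50. Against control_WT, Prxl2b was 2.14-fold higher on ECRS_KO (1.10), a call lost under 1 of 10 alternatives.

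Of the further lipoxygenases and enzymes of leukotriene conversion, 9 of 12 were measured in the comparisons of ECRS_WT with control_WT and of ECRS_KO with ECRS_WT, called the main comparisons below, and most were lower on ECRS_KO than on ECRS_WT. Between the latter, 1 was called lower and none higher, 8 of 9 lay below 0 and the median was -0.46. Among all measured genes 2.35% were called lower there and 54.4% lay below 0. Alox12b was detected on ECRS_WT alone and counted only through that array. With the background inferred by limma itself the list median was -0.09 and none was called. Alox12e, an epidermal 12-lipoxygenase of the mouse, had signals of 178, 232 and 152 on control_WT, ECRS_WT and ECRS_KO and was 2.08-fold lower on ECRS_KO than on ECRS_WT (-1.06). That call was lost under 6 of 10 alternatives, with values up to -0.22. Aloxe3, of the skin barrier, was lower by 1.99-fold there and by 3.39-fold against control_WT, the latter lost under 2 of 10 (up to -0.22). Mgst3, a microsomal glutathione transferase, was the exception upward at 0.67. Between ECRS_WT and control_WT, Mgst2, a microsomal relative of Ltc4s that can also make leukotriene C4, was 2.16-fold lower with signals of 332 and 217, a call lost under 3 of 10 alternatives (up to -0.53). The list median was -0.21 there, with 1 called lower. Between ECRS_KO and control_WT, 3 of 8 measured were called lower, namely Alox12e, Aloxe3 and Mgst2, beside 5.66% of all measured genes. There Mgst2 was 2.80-fold lower (-1.48), a call lost under 1 of 10 alternatives, and Alox12e 2.41-fold (-1.27), lost under 3 of 10.

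Receptors of the products were at or near background for the most part. Of 9 prostanoid receptors 6 were not detected on any array, among them Ptgdr and Ptgdr2, the receptors of prostaglandin D2. The 3 measured, Ptger1, Ptger2 and Tbxa2r, were not called in either main comparison, with medians of -0.03 and -0.10. Ptger1, a prostaglandin E2 receptor, differed by -0.86 and then 0.38, and Tbxa2r, the thromboxane receptor, by -0.03 and then -0.55. Of 7 leukotriene and lipoxin receptors 3 were measured and none called in the 2 main comparisons, with medians of -0.81 and 0.03. Cysltr1, a receptor of cysteinyl leukotrienes, had signals of 40.7, 93.0 and 161 on control_WT, ECRS_WT and ECRS_KO, and differed by 0.34 and then 0.18. Ltb4r1, a leukotriene B4 receptor, was called lower between ECRS_KO and control_WT, at 2.14-fold (-1.09), and that call was lost under 5 of 10 alternatives, with values up to -0.23.

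Enzymes at either end of the pathways stayed within 2-fold where measured. Of 11 phospholipases that release arachidonic acid 4 were measured, none was called, and the medians were -0.29 and -0.26 in the 2 main comparisons. Pla2g4a, the cytosolic phospholipase that feeds both routes, was not detected on any array, nor was Pla2g4b, and Pla2g5 differed by -0.42 and 0.72. Of 6 genes of breakdown and transport 4 were measured and none called, with medians of -0.08 and -0.04. Slco2a1, a prostaglandin transporter, and Abcc4, an exporter, differed by -0.71 and 0.22 between ECRS_KO and ECRS_WT. Hpgd, the enzyme that inactivates prostaglandins, was not detected, although its signals of 105, 121 and 242 were above those of Alox5; detection did not follow brightness in every probe.

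**Figure D3:**
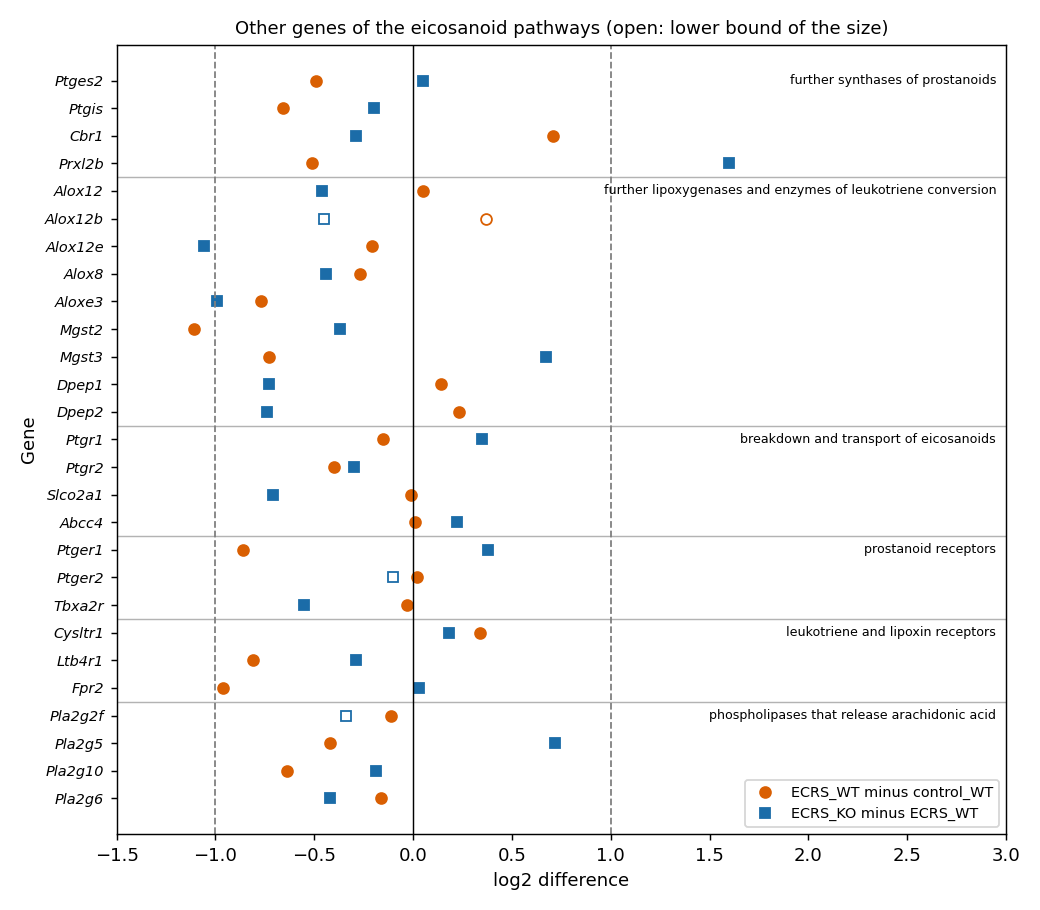
Differences on the log2 scale of measured genes of the 6 further pathway lists, drawn where the array with the higher level detected the probe, circles for ECRS_WT minus control_WT and squares for ECRS_KO minus ECRS_WT, with dashed lines at 2-fold. Open symbols mark a dimmer array that did not detect the probe, and are lower bounds only where the level of the dimmest detected probe was used. Prxl2b stands alone above 2-fold at 1.6, while 8 of 9 lipoxygenases and leukotriene enzymes lie to the left of 0 in ECRS_KO minus ECRS_WT.

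Between ECRS_KO and ECRS_WT, all measured macrophage, T cell, tuft cell, ciliated cell and platelet markers went the same way as the enzymes. So did the 1 measured eosinophil marker and most mast cell markers. Adgre1 (macrophage), Cd2 (T cell), Trpm5 (tuft cell) and Pf4 (platelet) were detected on ECRS_WT and not on ECRS_KO. These markers counted as measured only through ECRS_WT, which largely fixed their direction. In bulk tissue, fewer cells of a type and less RNA per cell cannot be told apart. Of 6 measured macrophage markers 4 were called lower on ECRS_KO than on ECRS_WT, none was called higher and the median was -1.41, and 2 were called higher on ECRS_WT than on control_WT, with a median of 0.84. Their summed level, on the linear normalized scale over the 8 markers with a probe, was 5419, 11880 and 4491 on control_WT, ECRS_WT and ECRS_KO. Over the 6 markers detected on an array, which leaves out Lyz2 and Cd163, it was 3953, 6921 and 2516. C1qb, a complement component made by macrophages, had signals of 951, 2449 and 976, and its partner C1qc 535, 1798 and 842. Cd163 was not detected on any array, and Lyz2 was not either despite signals of 1037, 4835 and 2515.

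Of 4 mast cell markers measured between ECRS_KO and ECRS_WT 2 were called lower, Mcpt4 and Cma1, both mast cell proteases and both at -1.23, with a list median of -0.66. Both calls were lost under 5 of 10 alternatives; with the background inferred by limma itself they were -0.20 and -0.18 and the list median was -0.14. Mcpt4 was also called higher on ECRS_WT than on control_WT (1.29), a call lost under 3 of 10 alternatives (down to 0.20). Hdc, which makes histamine, and the receptor Kit differed by -0.08 and 0.11 between ECRS_KO and ECRS_WT, Kit not being detected on ECRS_WT. The summed level of 10 mast cell markers was 2157, 2459 and 2110 on the 3 arrays (1911, 2242 and 1937 over the 4 detected), and the defining markers Cpa3, Fcer1a and Ms4a2 were not detected on any. Tuft cell markers gave 3 measured of 9 with a probe, with a median of -0.88 between ECRS_KO and ECRS_WT. Of these 1, Trpm5, not detected on ECRS_KO, was called lower at -1.04, a call lost under 5 of 9 alternatives (up to -0.12). Il17rb differed by -0.88 and Avil by -0.87, and Dclk1 was not detected. Pou2f3, Il25 and Chat, which define tuft cells, were not detected on any array, and the summed level of that list was 913, 899 and 616 (578, 593 and 315 over the 3 detected).

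T cell markers had the lowest median of the 12 marker lists between ECRS_KO and ECRS_WT, -2.01, with all 4 measured called lower and a summed level of 1524, 1729 and 474. Cd3d, Cd3g and Cd3e, chains of the T cell receptor complex, differed by -2.14, -1.93 and -2.09. With the background inferred by limma itself, the T cell median was -0.71 with none of 4 called, and the macrophage median was -0.96 with 3 of 6 called lower. Olfactory sensory neuron markers moved the other way, 9 of 10 being called higher on ECRS_KO with a median of 1.87 and a summed level of 31001, 29256 and 66839. Bone and cartilage markers had a median of 1.13 there, with 3 of 5 called higher and summed levels of 3381, 2637 and 6453. Neutrophil markers had a median of 0.16 with none of 9 called, after a median of -0.76 with 4 called lower on ECRS_WT against control_WT. The part of these shifts in the differences of the enzymes was not tested.

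In the remaining lists no marker was called between ECRS_KO and ECRS_WT. The median of 6 ciliated cell markers was -0.61 there, and that of 4 platelet and megakaryocyte markers -0.37, with Ppbp at -0.14, Itga2b at -0.23 and Treml1 at -0.55. The median of 4 sustentacular cell and Bowman gland markers was 0.16, after 1.16 with 2 called higher on ECRS_WT against control_WT. The 1 eosinophil marker measured there, Prg2, differed by -0.14. Prg2 and Il5ra were the 2 eosinophil markers measured between ECRS_WT and control_WT, with a median of -0.75 and none called. The medians of 5 olfactory ensheathing and meningeal cell markers were -0.01 and then 0.48 in the 2 main comparisons. Between ECRS_KO and ECRS_WT the ensheathing cell genes Sox10, Npy and Frzb differed by 0.68, 0.60 and 0.48, and the meningeal genes Igf2 and Aldh1a2 by -0.36 and -0.38. Ptgds, which meningeal cells are known to make, was lower there too. Between ECRS_WT and control_WT Igf2 and Aldh1a2 differed by -0.17 and -0.01, and Ptgds by 0.28. Foxc1 and Slc22a6 of the same list were not detected on any array. A meningeal part in the difference of Ptgds was not tested.

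**Figure D4:**
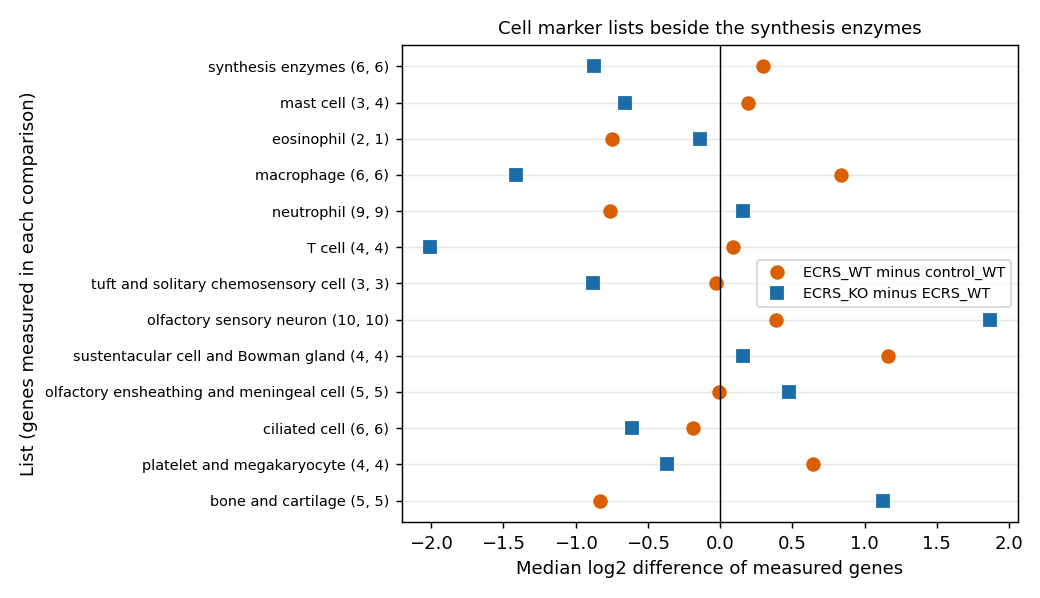
Median log2 difference of the measured genes of the synthesis enzymes and of 12 cell marker lists, circles for ECRS_WT minus control_WT and squares for ECRS_KO minus ECRS_WT; the numbers in brackets count the genes measured in each comparison. The synthesis enzymes, at 0.30 and -0.87, lie on the same sides of 0 as mast cell, macrophage, T cell and platelet markers.

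**Figure D5:**
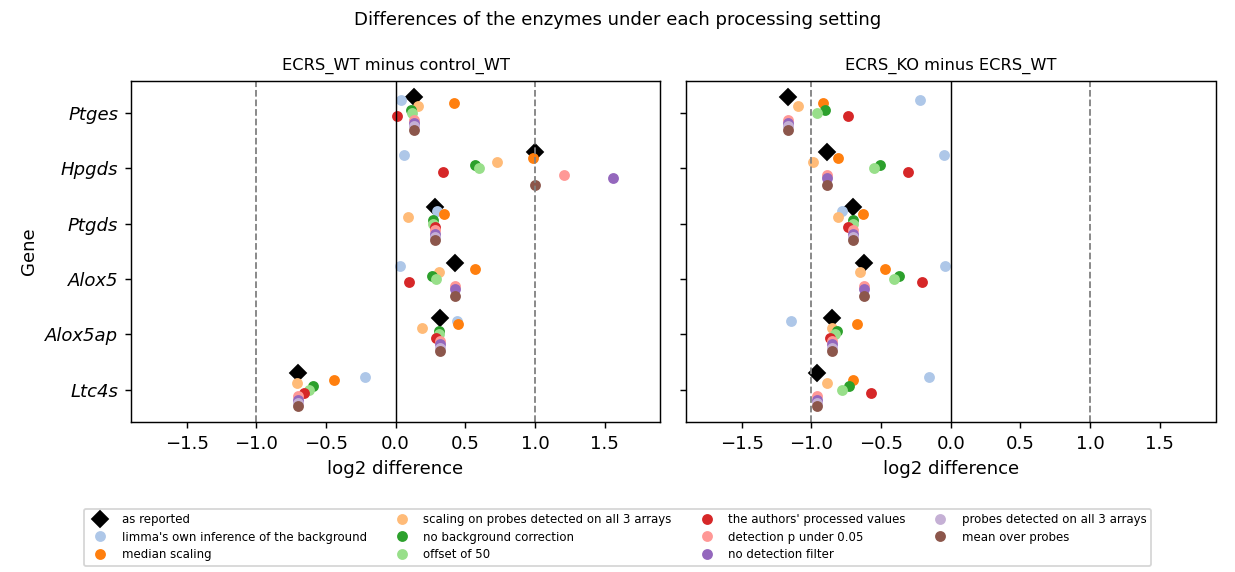
Difference of each measured enzyme on the log2 scale under the reported setting (black diamonds) and 10 alternatives (coloured circles), for ECRS_WT minus control_WT and ECRS_KO minus ECRS_WT, with dashed lines at 2-fold. No enzyme changes side of 0 in either panel, but the sizes of Hpgds range from 0.06 to 1.56 in the left panel and those of Ptges from -1.17 to -0.22 in the right panel.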

How the data were processed

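Total RNA pooled from 5 mice per group was measured on 3 Illumina bead arrays. The deposited table of non-normalized values holds, per the file headers, the signal intensity of 35226 probes and a p-value of detection for each; BeadStudio is named in the submitters' processing notes without a version. The series table holds intensity normalized by the authors. Their method is not given in the sources used here. These values equalled, on control_WT, the deposited signal plus 70.6, and the medians of the arrays labelled control_WT, ECRS_WT and ECRS_KO were 77.5, 76.8 and 76.7.

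From the deposited signals, background was corrected by normexp (offset 16), followed by quantile normalization and log2 (limma 3.58.1, R 4.3.3). The negative controls' SD was taken from median signals within 100 bins of detection p (9.23, 13.7 and 16.9 on the 3 arrays), because limma itself inferred 259.6, 356 and 361; that inference takes detection to follow signal, yet 153 to 222 probes per array with a signal over 1000 were not detected. Detection was set at 0.01. For a probe not detected on the dimmer array, its own level was used, or that of the dimmest detected probe there (5.19, 5.06 and 5.00) if higher. Of the probes, 20571 had 1 gene symbol, 10 several and 14645 none; 20525 matched RefSeq by Entrez identifier, and of several probes of a gene the brightest was used. Upstream sequences came from RefSeq (GRCm38.p6), in which 8 of the 10 genes had an entry. Named were all 10 genes, of each pathway list those that reached 2-fold in a comparison, or else the 2 brightest, and the 3 brightest of marker lists that moved with the enzymes; further genes were named after their values were seen. Genes and lists were chosen with earlier results of these data known. With 1 array per group there was no test. The procedure was tested on simulated data, in which only brighter detected probes were changed and the background came from the same binned estimate. That test therefore could not check the choice of background or the rule for undetected probes. In addition, 10 alternatives were computed. Python 3.11.15 was used.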

Additional observations from a re-analysis of the deposited data

How the results depend on the processing

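Differences were recomputed under 10 alternatives. The number of enzymes higher at 2-fold on ECRS_WT than on control_WT, 1 as reported, was 0 with the background inferred by limma itself, under median scaling, scaling on probes detected on all 3 arrays, no background correction, an offset of 50, the authors' processed values and probes detected on all 3 arrays, the last of which leaves out Hpgds. The number lower on ECRS_KO than on ECRS_WT, 1 as reported, was 0 under median scaling, no background correction, an offset of 50 and the authors' values; under limma's own inference it was 1, but the gene was Alox5ap in place of Ptges. The number lower on ECRS_KO than on control_WT, 2 as reported, was 0 under limma's own inference and 1 under both scalings, no background correction, an offset of 50 and the authors' values. The median of the enzymes between ECRS_KO and ECRS_WT was -0.19 under limma's own inference, against -0.87; the other medians moved by less than the SD between probes. Median scaling moved the median of all measured genes from -0.09 to 0.10 between ECRS_WT and control_WT, from -0.04 to 0.14 between ECRS_KO and ECRS_WT and from -0.11 to 0.26 between ECRS_KO and control_WT, and gave 513 higher and 43 lower genes in the first in place of 330 and 123, 563 and 126 in place of 421 and 210 in the second, and 1278 and 129 in place of 628 and 514 in the third. Limma's own inference gave 108 and 41, 144 and 81, and 213 and 148 in the same order. Averaging over probes left each enzyme as it was, since each has 1 probe. The changes of the detection rule likewise left Ptges, Ptgds, Alox5ap and Ltc4s as they were, since they were detected on all 3 arrays. The counts of alternatives given for any such gene include these settings. No paired analysis was possible because each group has 1 array. Signals near background limit Hpgds, Alox5 and Lta4h.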
